A study of Mus musculus with 2 samples.

Results

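Transcripts of 8 genes that move folate into cells, hold it there and pass one-carbon units between its forms were compared in mouse pancreas after a maternal diet deficient in methionine or a control diet. The genes are Mthfd1, Fpgs, Ftcd, Mthfd1l, Mthfd2, Aldh1l2, Slc19a1 and Folr1. Every probe set whose gene symbol field in the platform annotation holds one of these names was taken, which gave 13 of the 45101 probe sets on the array, for 8 of 18193 named genes. Each of the 13 carried 1 gene symbol only. RNA came from the pancreas of male offspring of C57BL/6J mothers, an inbred strain. The mothers ate control diet or methionine-deficient diet during pregnancy, and no mutation, transgene or drug is named in the labels. Offspring of both groups were weaned at 3 weeks, then ate control diet, and were 10 weeks old at collection, so both differed only in what the mother ate while pregnant, as far as the labels say. Each group is 1 pool of RNA on 1 array. The number of animals and of litters per pool is not given in the sources used here. With n = 1 array per group there is no replicate error and no test between the groups, and each difference below describes these 2 arrays.

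Folate in its reduced form carries one-carbon units at several oxidation levels, and cells use them to build purines and thymidylate and to turn homocysteine back into methionine. Enzymes of the mitochondria take these units from serine and release formate, and enzymes of the cytosol take formate up again, so the compartments form a loop. Methionine made with the help of folate is the precursor of S-adenosylmethionine, the methyl donor of most methylation reactions. The exocrine pancreas makes large amounts of secreted protein and has long been known as a tissue with a high folate content.

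Mthfd1, Fpgs and Ftcd were higher in the methionine-deficient pool, while Mthfd2 and Aldh1l2 were slightly lower. Mthfd1, the cytosolic enzyme that joins formate to folate and interconverts the products, was 1.57-fold higher in its brightest probe set. Fpgs, which adds the glutamate tail that keeps folate inside the cell, was 1.60-fold higher, and Ftcd, which feeds a formimino group from histidine breakdown into the folate pool, was 1.92-fold higher. Mthfd2 and Aldh1l2, both mitochondrial, were 1.14-fold and 1.20-fold lower. Mthfd1l, also mitochondrial, was 1.49-fold higher, by slightly less than the probe-set spread described below. Differences are log2(intensity + 1) of the methionine-deficient array minus that of the control array. The error beside each is the probe-set spread, a robust SD for 1 probe set at that level, estimated from pairs of probe sets of the same gene. It covers probe noise within these arrays and says nothing of the spread between mice. In a pooled tissue extract, fewer cells of a type and less RNA per cell cannot be told apart.

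**Figure D1:**
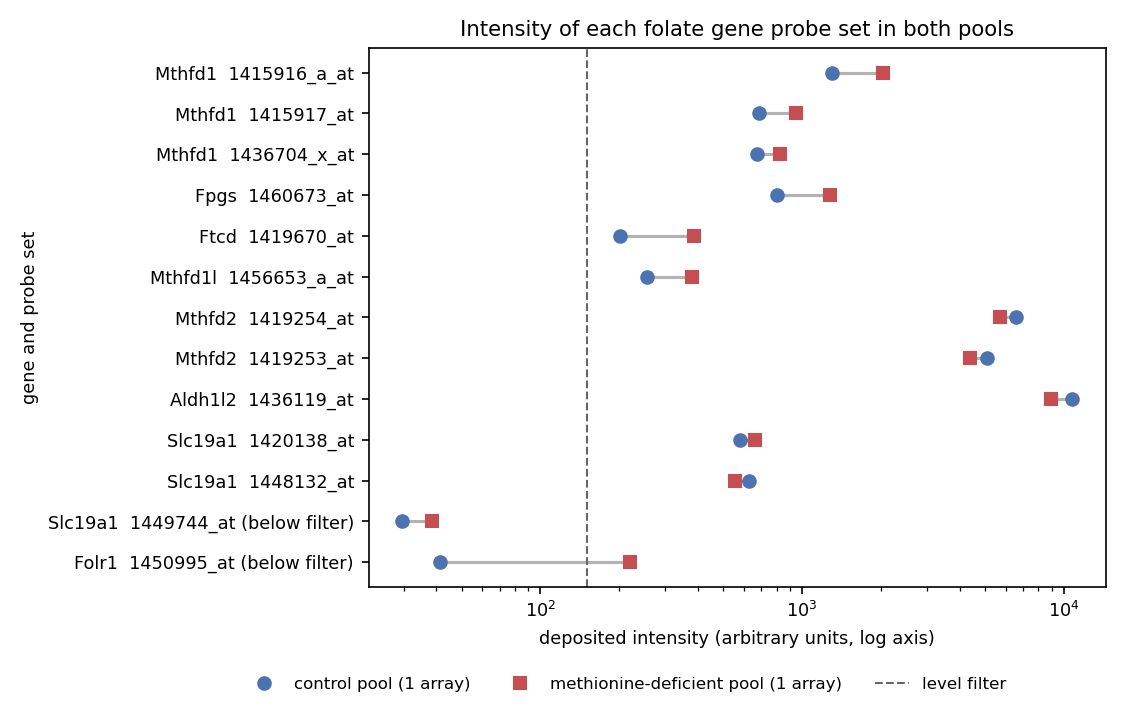
Deposited intensity (log axis, arbitrary units) of each of the 13 probe sets in the control pool (circles) and the methionine-deficient pool (squares), 1 array each, with a dashed line at the level filter of 150. The squares lie to the right of the circles for Mthfd1, Fpgs, Ftcd and Mthfd1l and to the left for Mthfd2 and Aldh1l2.

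All 3 probe sets of Mthfd1 were higher in the methionine-deficient pool. The brightest, 1415916_a_at, read 1305 after control diet and 2044 after maternal methionine deficiency (intensity, in arbitrary units), a log2 difference of 0.65 beside a probe-set spread of 0.18. The other 2 probe sets read 688 and 946 (1415917_at, log2 difference 0.46) and 675 and 823 (1436704_x_at, log2 difference 0.29), each beside a spread of 0.30. The direction was therefore shared, while the size differed by 0.36 on the log2 scale between the highest and the lowest probe set. The ending _x_at marks probes that can bind other transcripts too, which applies to the last value. Mthfd1 makes 10-formyl, methenyl and methylene folate, the forms that purine and thymidylate synthesis draw on.

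Fpgs and Ftcd were each read through 1 probe set. Fpgs read 800 in the control and 1277 in the methionine-deficient pool, a log2 difference of 0.67 with a spread of 0.30. Ftcd had 201 and 388, a log2 difference of 0.94 with a spread of 0.59. The difference of Fpgs was 2.23 times its spread and that of Ftcd 1.61 times. Each rests on a single probe set, so neither has a check within the array. Ftcd is best known as a liver enzyme, and of 8 hepatocyte markers measured on the same arrays 4 were higher and 4 lower. The 3 past the level filter were all lower, among them Alb, the gene of serum albumin, at 279 and 193. Below the filter, Cps1, a urea cycle enzyme, read 89.5 and 209 (log2 difference 1.21, spread 1.18), Apoa1, an apolipoprotein, read 44.9 and 99.4, and the fibrinogen genes Fga and Fgb were higher too, at intensities of 17.6 or less. The part of liver transcripts in the Ftcd value was not tested.

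Of the mitochondrial enzymes, Mthfd1l had a difference of the same sign as Mthfd1. It releases formate from 10-formyl folate, the last step before one-carbon units leave the mitochondrion. Its probe set read 255 in the control and 380 in the methionine-deficient pool, a log2 difference of 0.57 that was slightly smaller than its spread of 0.59. Mthfd2, the dehydrogenase and cyclohydrolase that acts before it and is known for its high level in embryonic and dividing cells, was lower in both of its probe sets. These read 6559 and 5737 (log2 difference -0.19) and 5082 and 4369 (log2 difference -0.22), each beside a spread of 0.18. The pair differed from each other by 0.025 on the log2 scale. Aldh1l2, which oxidises 10-formyl folate to carbon dioxide and yields NADPH, had 10800 and 8980, a log2 difference of -0.27 with a spread of 0.18. Each of these 3 differences was slightly larger in size than the spread, and none reached 1.5-fold.

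**Figure D2:**
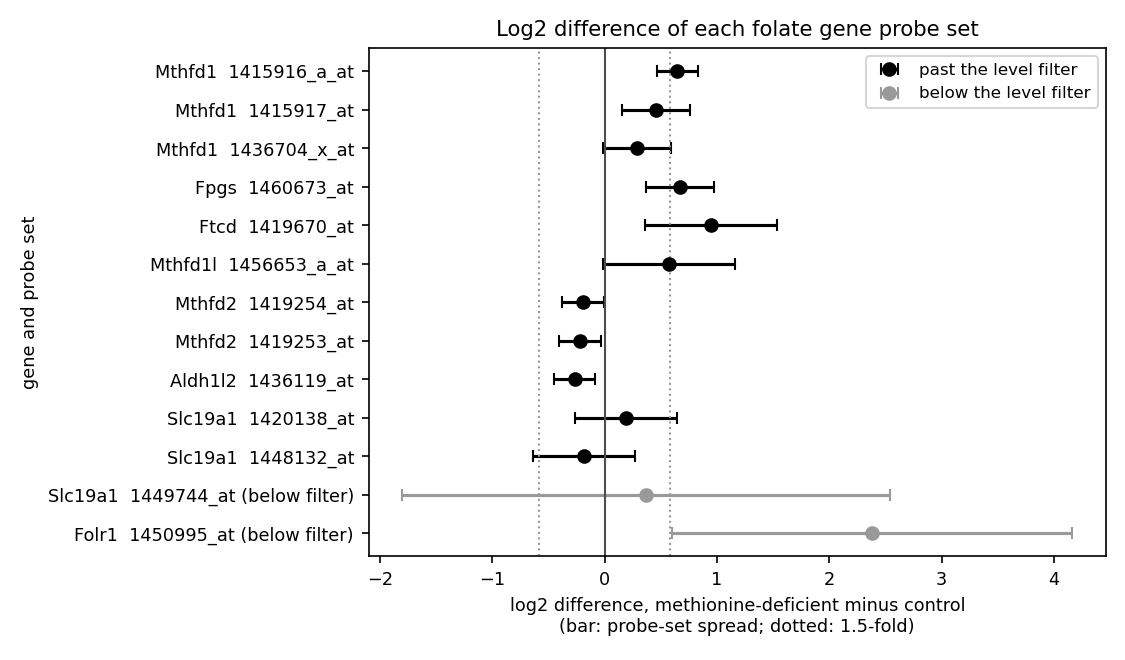
Log2 difference (methionine-deficient minus control) of each probe set, with the probe-set spread at its level as the bar and dotted lines at 1.5-fold. Points of Mthfd1, Fpgs and Ftcd lie at 0.29 to 0.94, those of Mthfd2 and Aldh1l2 at -0.27 to -0.19, and grey points are the probe sets below the level filter, with spreads of 2.17 and 1.78.

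The transporters gave no common direction. Slc19a1 is the reduced folate carrier, which exchanges folate for organic anions at the cell membrane. Its probe set 1420138_at read 578 in the control and 660 in the methionine-deficient pool, a log2 difference of 0.19, and 1448132_at read 628 and 553, a log2 difference of -0.18. Each lay within its spread of 0.46, and the probe sets pointed opposite ways, so these arrays give no direction for Slc19a1. A further probe set, 1449744_at, was dim at 29.6 and 38.6. Folr1, a folate receptor anchored to the membrane that takes folate up by endocytosis, had the largest difference of the 13 probe sets and among the lowest intensities, 41.5 in the control and 219.8 in the methionine-deficient pool. Its log2 difference of 2.38 stood beside a spread of 1.78. In the tenth of probe sets at its level, 30.9% were at least 2-fold higher. Folr1 itself was 5.20-fold higher, and the share at that size was not counted.

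Probe sets with a mean level at or above the median of all probe sets, an intensity of 150, were counted. Of the 13 probe sets 11 passed, of 7 genes, and those of Folr1 and the dim one of Slc19a1 did not. Of the 11, none was at least 2-fold higher or lower, against 4.50% higher and 3.41% lower among all 22519 probe sets past the filter. At 1.5-fold, 3 were higher and 0 lower, against a background of 12.0% higher and 10.2% lower. These 3 were the brightest probe set of Mthfd1 and those of Fpgs and Ftcd. The share of probe sets at least 1.5-fold higher depends on the level: it was 17.5% in the tenth that holds Ftcd, 4.51% in that of Fpgs and 1.31% in that of the brightest Mthfd1 probe set. A 1.5-fold difference was thus rarer at the level of Mthfd1 than at that of Ftcd, but how much rarer depends on a bin edge. The brightest Mthfd1 probe set, at percentile 90.8 by level, lay at the lower edge of its level bin, whose median intensity was 3040. The next bin down, that of Fpgs, had the share of 4.51% and a spread of 0.30 in place of 0.18. The Mthfd1 difference of 0.65 was larger than either spread. Mthfd1l, at 1.49-fold, lay just outside the size counted. With both arrays set to the poly-A spike-in controls instead, the count at 1.5-fold was 1, since Mthfd1 and Fpgs then had log2 differences of 0.47 and 0.49 and only Ftcd passed, at 0.76.

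**Figure D3:**
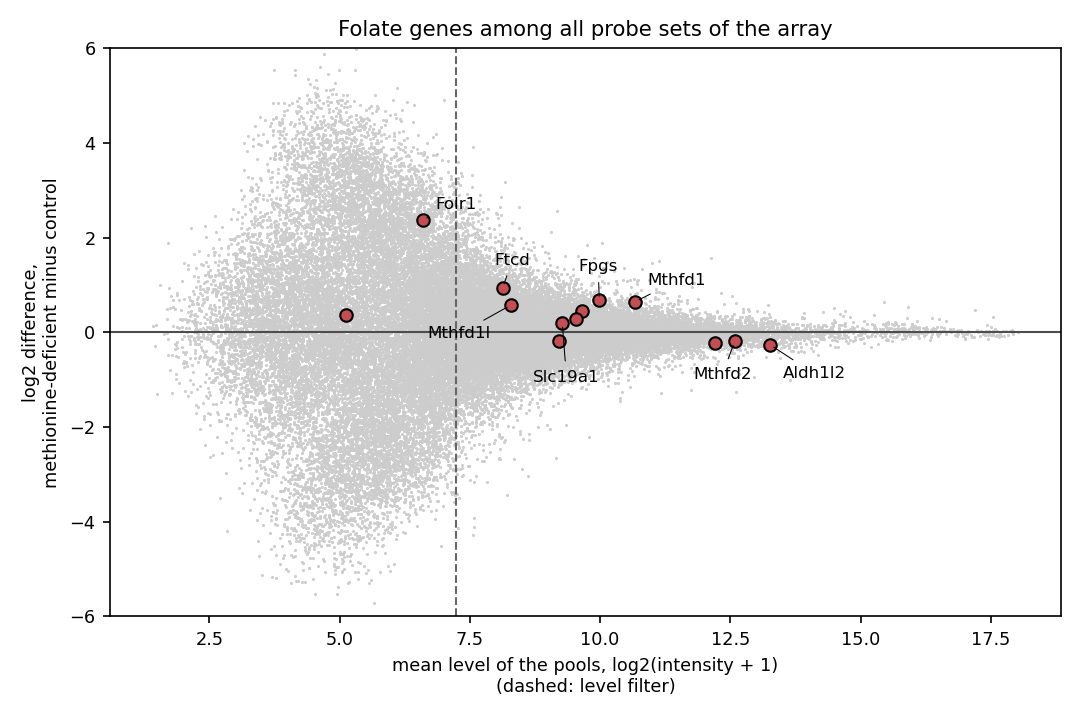
Log2 difference (methionine-deficient minus control) against the mean level of both pools, log2(intensity + 1), for all probe sets other than array controls (grey, with 1 beyond the axis) and the 13 folate probe sets (red, each gene named at its brightest probe set). The cloud narrows with level. The brightest Mthfd1 probe set, at 0.65, lies near its upper edge, and Folr1, at 2.38, lies in the broad dim part left of the dashed level filter.

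Taking the brightest probe set of each of the 7 genes past the filter, 5 were higher and 2 lower. The 5 include Slc19a1, whose probe sets past the filter pointed opposite ways, and Mthfd1l, whose difference was smaller than its spread. The median log2 difference was 0.57, which is the value of Mthfd1l, and that of all 11848 genes past the filter was -7.75e-06. Over the 11 folate probe sets past the filter the median was 0.29, against 0.0067 for all 22519 probe sets past it. The genes were not drawn at random, and the median of so few moves with which of them are counted: with the level filter at the 75th percentile, which leaves 5 genes, it was 0.19.

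The 250 bases before the annotated transcript start are shown for the 3 genes past 1.5-fold and, for contrast, for Mthfd2, whose probe sets were both lower. They are from RefSeq on build GRCm38.p6, which held windows for 6 of the 8 genes. The window of Mthfd1 is chr12:76254982-76255231 on the plus strand, that of Fpgs chr2:32694176-32694425 on the minus strand, that of Ftcd chr10:76575398-76575647 on the plus strand and that of Mthfd2 chr6:83317605-83317854 on the minus strand. Each is written 5′ to 3′ along the gene and ends at the base before the start. Capitals mark matches on either strand to the CCAAT box (CCAAT), the GC box (GGGCGG) or the TATA box (TATAAA).
Mthfd1: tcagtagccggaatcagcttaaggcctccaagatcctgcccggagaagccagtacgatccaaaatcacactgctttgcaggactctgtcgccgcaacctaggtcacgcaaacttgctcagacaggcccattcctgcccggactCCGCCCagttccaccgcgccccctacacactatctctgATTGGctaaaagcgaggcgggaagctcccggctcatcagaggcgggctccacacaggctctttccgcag
Fpgs: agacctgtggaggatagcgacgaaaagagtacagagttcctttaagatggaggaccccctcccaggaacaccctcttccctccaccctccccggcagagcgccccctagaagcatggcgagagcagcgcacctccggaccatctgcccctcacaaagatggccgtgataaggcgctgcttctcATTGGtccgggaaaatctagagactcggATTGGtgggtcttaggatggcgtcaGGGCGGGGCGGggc
Ftcd: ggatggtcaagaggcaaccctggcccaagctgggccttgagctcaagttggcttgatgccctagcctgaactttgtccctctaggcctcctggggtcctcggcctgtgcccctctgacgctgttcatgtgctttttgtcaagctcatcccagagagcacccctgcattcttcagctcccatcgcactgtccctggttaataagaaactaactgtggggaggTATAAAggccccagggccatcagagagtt
Mthfd2: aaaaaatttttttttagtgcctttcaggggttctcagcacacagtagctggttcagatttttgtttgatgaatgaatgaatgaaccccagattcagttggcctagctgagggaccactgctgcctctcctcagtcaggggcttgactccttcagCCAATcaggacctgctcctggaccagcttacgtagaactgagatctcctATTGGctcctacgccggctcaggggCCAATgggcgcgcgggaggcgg

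The Mthfd1 window holds 1 CCAAT box and 1 GC box, and that of Fpgs holds 2 CCAAT boxes and 2 GC boxes, the latter overlapping by 1 base. Ftcd has none of either and holds 1 TATA box, from 29 to 24 bases before the start. Mthfd2 holds 3 CCAAT boxes and no GC box or TATA box. Among all 32851 promoter windows of this length, 33.8% hold a CCAAT box, 32.7% a GC box and 12.4% a TATA box, so each of these matches is common. The E-box (CACGTG, in 6.02% of windows) and the CHOP-ATF4 core (TGATGNAA, in 3.45%) were searched too and matched in none of the 7 windows of the 6 genes. A match describes letters only, and no binding was measured.

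Genes that work beside these were read from lists, each gene through its brightest probe set. For genes past the filter, 10.4% of the array were higher by 1.5-fold or more and 9.00% lower by as much. Of the other folate interconversion genes, 7 passed the filter, with 4 higher and 3 lower and a median log2 difference of 0.01. Only Shmt1, the cytosolic enzyme that moves a carbon from serine to folate, passed 1.5-fold, at 182 and 274 (log2 difference 0.59, spread 0.78). Mtfmt, which formylates the initiator transfer RNA of mitochondria, had 0.53 (spread 0.46), and Mtrr, which reactivates methionine synthase, had 0.47 (spread 0.59). Of the genes for folate uptake, efflux and storage, the median was -0.15, and 2 of 7 were higher. Abcc1, an efflux pump, had -0.66 in its brightest probe set and 0.91 in its other one. Slc25a32, which carries folate into mitochondria, had -0.58 (spread 0.59) but 0.16 in another probe set past the filter. Slc46a1, the proton-coupled folate transporter, had -0.29 and -0.98 in its 2 probe sets.

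Genes of pathways that use or supply one-carbon units differed in both directions, mostly by small amounts. Of the 7 genes of purine and thymidylate synthesis 6 passed the filter, and of these 1 was higher and 5 were lower, with a median of -0.30. Gart, which uses 10-formyl folate in purine synthesis, had 1087 and 689 (log2 difference -0.66, spread 0.30), although its 3 probe sets past the filter ran from -2.68 to 0.79. Pfas, another purine enzyme, had -0.35 and Adsl, which acts later in the pathway, had 0.55, each beside a spread of 0.30. Tyms, which makes thymidylate, was below the filter at 95.6 and 24.8 (log2 difference -1.90, smaller in size than its spread). Of the serine and glycine genes past the filter 3 of 5 were lower and 2 higher, with a median of -0.30. The lower ones were Psph at -0.37 (spread 0.30), Dld at -0.35 and Psat1 at -0.30, the latter pair beside a spread of 0.18. The higher ones were Phgdh, at 33608 and 37693 (log2 difference 0.17), and Gcsh, at 4503 and 5152 (log2 difference 0.19), both beside a spread of 0.18. Phgdh, Psat1 and Psph carry out the steps of serine synthesis in that order, while Dld and Gcsh are parts of the glycine cleavage system. Of the 4 Phgdh probe sets past the filter, 1 was higher and 3 were lower, from -0.24 to 0.17. These arrays thus give no direction for the first step of serine synthesis. Among the genes of both lists past the filter, Gart alone was at least 1.5-fold lower in its brightest probe set. Atic, of the purine and thymidylate list, had -0.26 in its brightest probe set and -1.64 in its other one past the filter.

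Ftcd acts at the end of histidine breakdown, and an earlier step differed the other way. Uroc1, which hydrates urocanate, read 287 in the control and 116 in the methionine-deficient pool. Its log2 difference was -1.29 with a spread of 0.78. Uroc1 was the only one of 3 upstream genes past the filter, and only its control value exceeded the filter intensity of 150. The share of probe sets that much lower at its level was not counted. Mthfd2 and Aldh1l2 are known targets of ATF4, the transcription factor of the amino acid response, and 14 other ATF4 targets were read beside them. Their median was -0.04, with 5 higher and 9 lower. Slc3a2, the heavy chain of amino acid transporters, had -0.42 (spread 0.18), Sesn2, a stress-induced regulator of growth signalling, had -1.04 and the transcription factor gene Atf3 had 1.24, both with a spread of 0.59. The differences of Mthfd2 and Aldh1l2 thus lay among values of both signs.

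**Figure D4:**
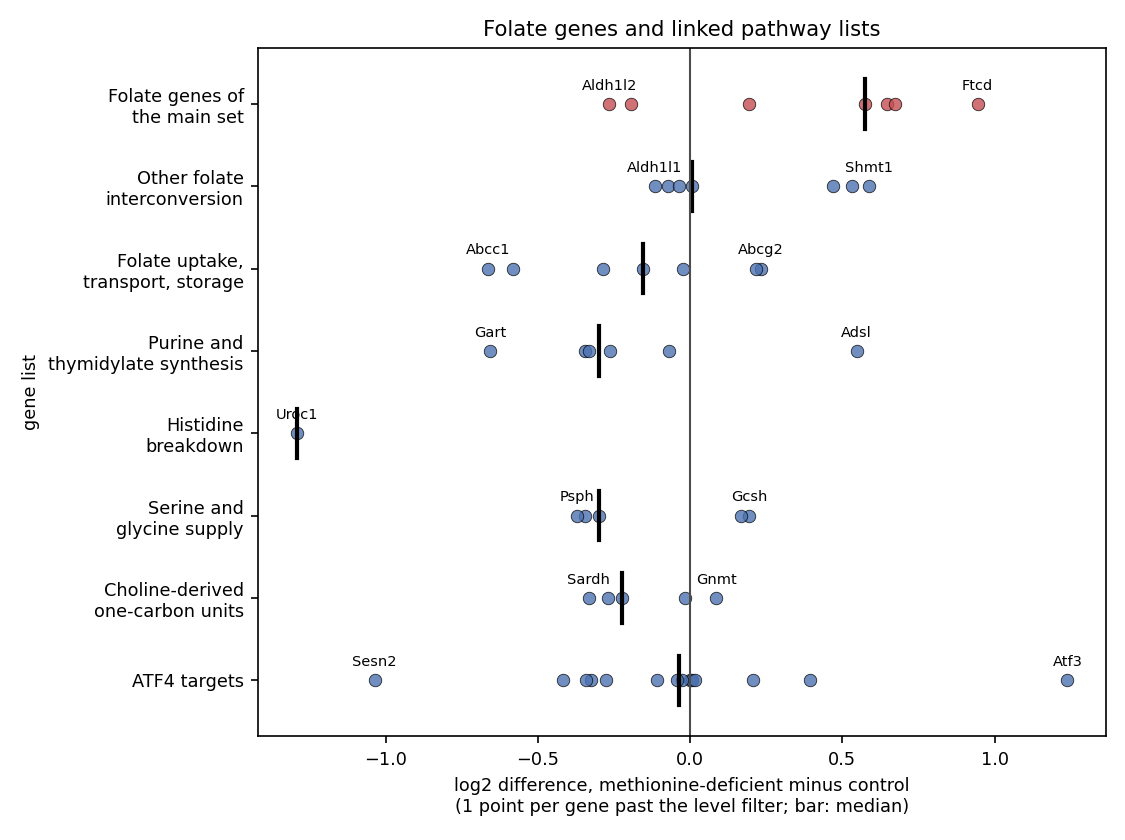
Log2 difference (methionine-deficient minus control) of every gene past the level filter, 1 point per gene, for the 7 folate genes (red) and for 7 linked lists (blue), with the median as a bar and the lowest and highest gene of each list named. The folate median lies at 0.57, while those of the linked lists lie between -1.29, for the single gene of histidine breakdown, and 0.01. The folate genes and all lists were chosen with earlier results of these data known. Other folate genes are among the linked lists, so the medians do not describe folate genes as a class.

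Both arrays had a mean of 500.003 after trimming 2% at each end, and medians of 165 and 171. The 9 acinar markers measured, which define the tissue, all had intensities of at least 3950, with 4 higher and 5 lower. For other cell types, counts and summed intensities (control, then methionine-deficient) cover every marker measured, dim ones included. Islet markers were higher in 3 of 7 cases, with sums of 174236 and 181988. Duct markers were higher in 3 of 5 (3680 and 3784) and hepatocyte markers in 4 of 8 (3276 and 3121). Most of the duct sums came from Epcam, which was lower, at 2201 and 1972. Of the 4 duct markers past the filter 3 were higher, with a median log2 difference of 0.41. Krt7, at 0.74, and Sox9, at 0.62, passed 1.5-fold, each beside a spread of 0.59. The macrophage list was higher in 5 of 7 genes (6010.5 and 7749), and the B and plasma cell list lower in 5 of 6 (11012 and 5867). All 4 adipocyte markers were lower (15507 and 13064), as were all 4 kidney tubule markers (733 and 587). Of the markers of proliferating cells 3 were higher and 6 lower (6689 and 6078). No marker was listed at 0. The 3′ over 5′ ratio, which rises as RNA degrades, was 1.46 and 1.76 for Actb and 0.973 and 1.11 for Gapdh. The part of these cell types and of RNA quality in the folate values was not tested.

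**Figure D5:**
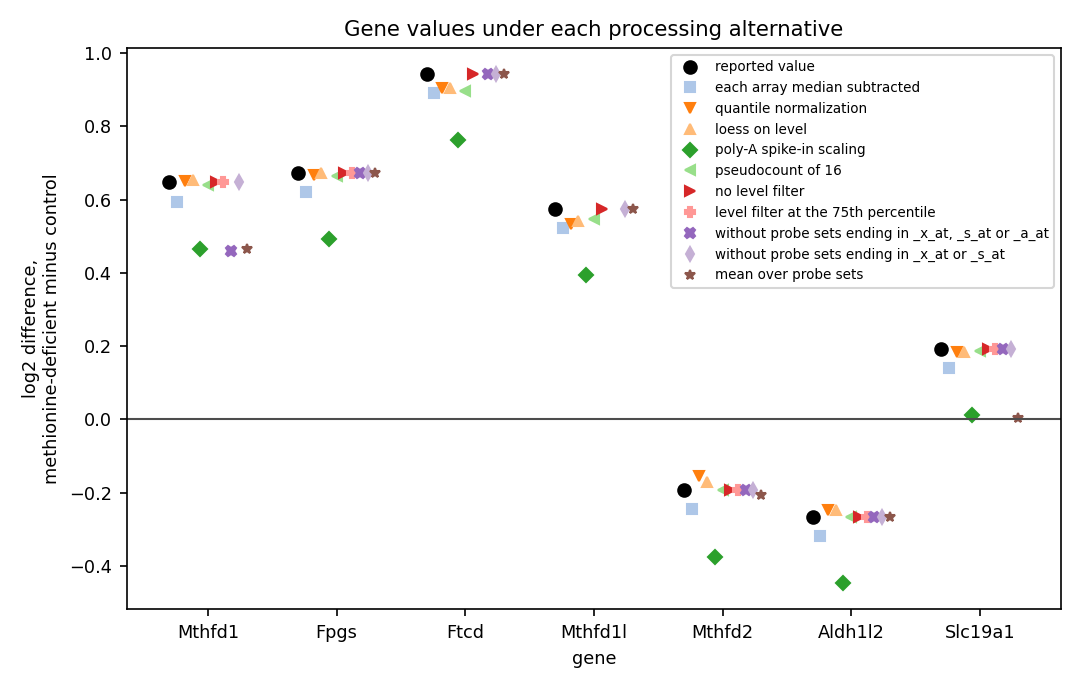
Log2 difference (methionine-deficient minus control) of the 7 genes past the level filter under the reported setting (black circles) and each alternative (coloured symbols). No gene changed sign, and the diamonds of poly-A spike-in scaling lie lowest for Ftcd, at 0.76, and for Aldh1l2, at -0.45.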

How the data were processed

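Biotin-labelled cRNA of 1 RNA pool per group was hybridised to Affymetrix 3′ arrays, per the labels' protocols. The deposited table holds 1 intensity per probe set on a linear scale, and how the values were computed and scaled is not given in the sources used here. No further scaling was applied. Intensities were taken to log2(value + 1), which understates fold changes of dim probe sets, and tests between groups were not possible with 1 array each, so precision is limited by the number of arrays. Gene symbols were those of the 2016 platform annotation, replaced by current RefSeq symbols where the gene identifier matched. The 932 probe sets with several symbols and 9160 with none stayed out of gene counts. A gene was read through its brightest probe set. The probe-set spread was the scaled median absolute deviation of differences within pairs of neighbouring probe sets of 1 gene, divided by the square root of 2, in 10 level bins. On simulated noise over 45037 probe sets, as 20 draws, it returned 97.7% to 102% of the true value. That noise was normal and independent between probe sets, as the estimate assumes. The draws thus check the calculation, not whether the assumption holds for these arrays. Of each linked list, up to 3 genes past the filter with the largest differences were named. Tyms, Atic, Phgdh, Gcsh, Dmgdh, Cps1, Apoa1, Fga, Fgb, Epcam and Gnmt were named after their values were seen. Listed genes that matched no probe set were not analysed here. The folate genes and all lists were chosen with earlier results of these data known. Computations used Python 3.11.15 with numpy 2.4.6, pandas 2.3.3, scipy 1.17.1, statsmodels 0.14.6 and matplotlib 3.10.9. Alternatives were median, quantile, loess and poly-A spike-in scaling, a pseudocount of 16, other level filters, 1.5-fold, probe set type and the mean over probe sets.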

Additional observations from a re-analysis of the deposited data

How the results depend on the processing

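The probe sets at least 2-fold different numbered 0 among those past the filter under 8 of the alternatives that scale or filter, 1 without a level filter (Folr1) and 3 at 1.5-fold. The gene median was 0.57, and lay between 0.33 and 0.61 under the alternatives other than the filter at the 75th percentile, which gave 0.19 because Ftcd and Mthfd1l are not among the 5 genes left. Under the 4 scalings and the pseudocount of 16, no single value changed sign, and 100 of 100 moved by less than the probe-set spread. The 100 count each gene past the filter beside its brightest probe set. Median and poly-A scaling shift every value equally, the latter by 0.182. The smallest spread was 0.185, so no value could exceed its spread under either. With poly-A scaling Mthfd2 went from -0.19 to -0.37 and Slc19a1 from 0.19 to 0.01. The other alternatives change which probe sets count, not a probe set's own difference, and gave Mthfd1 0.46 without probe sets ending in _x_at, _s_at or _a_at. Leaving out only _x_at and _s_at was chosen after seeing the data and left every gene value in place. Scaling to the 24 poly-A spike-in probe sets moved all values down by 0.18 and left 1 of 3 probe sets past 1.5-fold, and the cause of the offset between these controls was not tested. The mean over probe sets gave 0.0048 for Slc19a1. No paired analysis was possible because each group is 1 array. Signal near background limits Folr1 and the dim probe set of Slc19a1.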

Other observations

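Genes on a list linked to choline-derived one-carbon units showed a further set of small differences. In this list 1 of 5 genes past the filter was higher and 4 were lower in the methionine-deficient pool, with a median log2 difference of -0.22. The higher one was Gnmt, a glycine methyltransferase that does not itself act on choline, at 11994 and 12721 (log2 difference 0.08, spread 0.18). Sardh, the mitochondrial enzyme that frees a one-carbon unit from sarcosine, read 3055 in the control and 2423 in the methionine-deficient pool, and its 2 probe sets both gave -0.33 beside a spread of 0.18 for the brightest. Aldh7a1, which oxidises betaine aldehyde, had -0.27 (spread 0.18), and Bhmt, which uses betaine to remethylate homocysteine, had -0.22 (spread 0.59). None of these 5 differed by 1.5-fold. Dmgdh, the dimethylglycine enzyme of the same list, was below the filter at 134 and 86.4 (log2 difference -0.63, spread 1.18).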
